A study of Zea mays with 6 samples.

Results

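m6A peaks shared by overlapping genes were examined in seedlings of the maize F1 hybrid B73×Mo17. A peak of m6A-seq replicate 1 was taken as a member when it overlapped a peak of replicate 2 by at least 1 bp and the spans of 2 or more annotated entries by at least 1 bp. Replicate 1 held 17371 peaks and replicate 2 held 30378, and 17022 replicate 1 peaks overlapped a replicate 2 peak (high-confidence peaks). The paper also keeps peaks found in both replicates but counts fewer in the hybrid, so its set differs from this one. Of the 17022 peaks, 345 (2.03%) lay over 2 or more entries, 13892 lay over exactly 1 entry and 2785 lay over none. Among the 345 shared peaks, 339 lay over 2 entries and 6 over 3, and together they touched 650 different entries in 337 pairs.

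The data comprise 6 libraries from aerial tissue of F1 plants 14 days old, with 2 biological replicates each of m6A-seq, input RNA-seq (mRNA abundance) and polysome profiling. In m6A-seq, RNA fragments are pulled down with an antibody against m6A, and each replicate was compared with its input library to call peaks. Polysome profiling sequences the RNA that sediments with ribosomes on a sucrose gradient, and the polysome to mRNA ratio of FPKM (fragments scaled to transcript length and to the size of the library) is the study's translational efficiency. All libraries come from 1 genotype and 1 stage with no treatment, so the comparisons run between kinds of library and between genes, and the parental lines were not analysed here. Since no table used here pairs the gene identifiers with symbols, neither the tissue label nor the function of any member gene could be looked up.

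m6A is a methyl mark on adenosine within RNA. In plants it is written by a methyltransferase complex built around MTA and MTB, is read by YTH-domain proteins, and is known to lie mostly near the stop codon and in the 3′UTR. Genes on opposite strands whose 3′ ends run into each other (convergent genes) therefore place the parts of their transcripts where m6A is usually found on the same stretch of DNA. A peak is a stretch of the genome with no strand of its own. The library kit named in the methods is not a directional one and no strand option is named for mapping or counting, so reads of opposite-strand genes in the shared stretch could not be told apart, and the 345 peaks could not be given to 1 gene of a pair.

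Convergent pairs held most of the shared peaks. By the strands of the genes below them, 197 peaks (57.1%) lay over a convergent pair, 86 (24.9%) over genes of the same strand, 53 (15.4%) over a gene nested within another of the opposite strand, and 5 (1.45%) over a divergent pair, in which the 5′ parts overlap. The remaining 4 peaks lay over 3 entries that form pairs of different kinds. The peaks were found on all 10 chromosomes, from 19 on chromosome 7 to 58 on chromosome 5.

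The share of convergent peaks did not follow the number of convergent pairs in the annotation. Of 459 convergent pairs that overlap in the annotation, 185 (40.3%) carried a shared peak, against 86 of 1719 same-strand pairs (5.003%), 55 of 801 nested pairs (6.87%) and 4 of 225 divergent pairs (1.78%). Among pairs with both genes at 1 FPKM or more in the mean of the mRNA libraries, the shares were 83 of 164 convergent pairs (50.6%), 20 of 154 same-strand pairs (13.0%), 12 of 59 nested pairs (20.3%) and 1 of 49 divergent pairs (2.04%). The order of the classes was thus the same in pairs of expressed genes. The genes of a pair with a shared peak also overlapped over a longer stretch, with a median of 242 bp in convergent pairs with a peak and 153 bp in those without, and 1981.5 bp and 82 bp in same-strand pairs. The rule favours this, since a longer overlap leaves more room for a peak that touches both genes. A further 7 convergent pairs share no base, and their peak spans the gap between the 3′ ends. These are counts over an annotation and were not tested.

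The fold enrichment of a peak, immunoprecipitated over input signal at its summit, ranged from 1.76 to 21.5 in replicate 1 and from 1.67 to 23.2 in replicate 2 over the 345 shared peaks. Its median was 6.15 in replicate 1 (quartiles 4.36 and 8.68) and 6.76 in replicate 2 (quartiles 4.53 and 10.01). Peaks over 1 gene had medians of 6.43 and 7.35, so the difference between both kinds of peak was of the size of the spread between replicate medians of the shared peaks (SD 0.429, n = 2). Convergent peaks had medians of 6.196 and 6.35, same-strand peaks 6.24 and 7.24, nested peaks 6.12 and 7.43, and the 5 divergent peaks 3.64 and 4.78. The medians of the convergent, same-strand and nested classes were nearly equal in replicate 1, and in replicate 2 that of convergent peaks was the lowest of these classes.

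The folds of both replicates went together over the shared peaks. Over the 345 peaks, log2 folds of both replicates had a Pearson correlation of 0.785, against 0.711 over peaks of 1 gene, given as a description since each peak shares its libraries with the others. The folds of the replicates were within 1.5-fold of each other in 257 peaks (74.5%), and the median absolute log2 difference was 0.31. This difference was smallest among the larger classes in convergent peaks, at 0.28, and largest in nested peaks, at 0.40. The fold was higher in replicate 2 in 207 peaks, and the summits of the replicates lay a median of 7 bp apart.

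**Figure D1:**
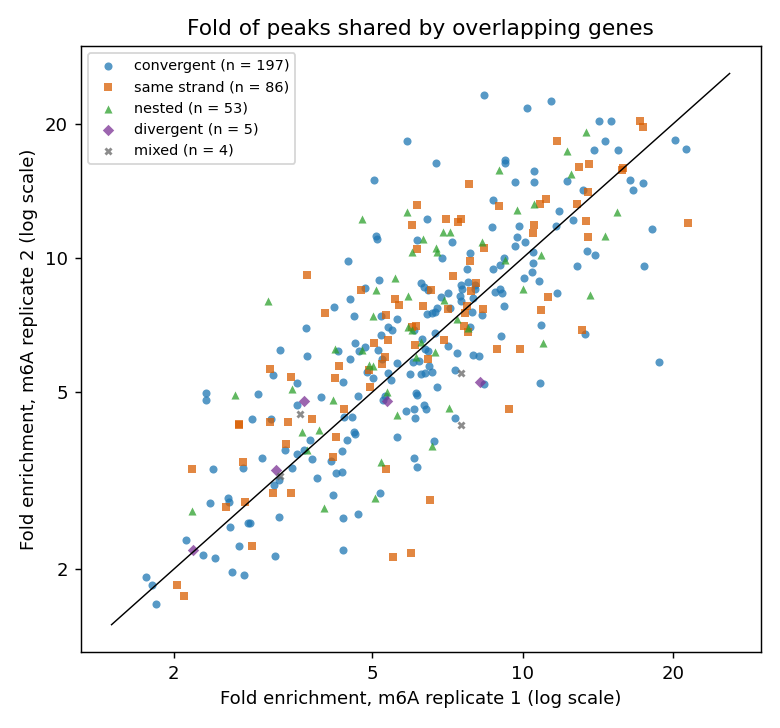
Fold enrichment of the 345 peaks shared by overlapping genes in m6A replicate 1 (horizontal, log scale) and replicate 2 (vertical, log scale), 1 point per peak, coloured by the class of the genes. The line marks equal folds, and 207 peaks lie above it; the 5 divergent peaks sit below a fold of 10 in both replicates.

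The place of the summit is bound in part by the rule, which asks a peak to touch both genes, and is described by class with no test. The summit lay inside 2 or more genes in 266 of the 345 peaks (77.1%) in replicate 1, and in 76.2% with the replicate 2 summits. It did so in 132 of 197 convergent peaks (67.0%), 83 of 86 same-strand peaks (96.5%), 43 of 53 nested peaks (81.1%) and all 5 divergent peaks. In the other 79 peaks the summit lay inside 1 gene and a flank of the peak reached the next.

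Over the 357 combinations of a peak and a pair of genes below it, the summit lay within 500 bp of the 3′ ends of both genes in 199 (55.7%), of 1 gene only in 121, and of neither in 37. In peaks of 1 gene with the summit inside the gene (13758), 71.2% of summits were within 500 bp of its 3′ end, with a median distance of 221 bp. Convergent pairs had the summit within 500 bp of both 3′ ends in 133 of 201 combinations (66.2%) and same-strand pairs in 61 of 94 (64.9%). The genes shared 500 bp or less in 7, 48 and 68 of these convergent combinations (no base, up to 100 bp and up to 500 bp), where a peak that touches both must lie near both 3′ ends. In nested pairs this was the case in 5 of 57 (8.77%), and in the 5 divergent combinations it did not occur. Since exons, introns and UTRs were not part of the files used here, these places are positions along the gene and not transcript parts.

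In convergent pairs, the summit was nearer to the 3′ end of the less abundant gene in 117 of 201 combinations and to that of the more abundant gene in 84, but fell more often inside the more abundant gene. Its median distance upstream of the 3′ end of the more abundant gene was 139 bp (quartiles 81 and 262), and that from the 3′ end of the less abundant gene was 75 bp, with quartiles of -14 and 429, where a negative value lies past the end of the gene. Of 201 combinations, 135 had the summit inside both genes, 55 inside the more abundant gene only and 11 inside the less abundant gene only. Where the genes overlapped by 1 to 100 bp, these counts were 10, 34 and 4 of 48, and the median distance was 77 bp for the more abundant gene and -24 bp for the other. Where they overlapped by more than 2000 bp, the summit was inside both genes in 30 of 31, a median of 376 bp from the 3′ end of the more abundant gene and 2505 bp from that of the less abundant one. The distance to at least 1 of both 3′ ends has to grow with the overlap.

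Same-strand pairs mostly consist of a gene inside a longer one. Of their 94 combinations, 64 were of this kind and 30 were staggered. The 3′ ends of both genes lay within 100 bp of each other in 28 of the 64 and in 13 of the 30, and the summit had a median distance of 213.5 bp to the 3′ end of the more abundant gene and of 169 bp to that of the other. The summit thus lay close to the 3′ ends of both genes in most same-strand pairs, as it did in convergent ones.

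In nested pairs, in which the genes have opposite strands, the summit lay near the 3′ end of the inner gene. The outer genes had a median length of 9913 bp and the inner genes of 1469 bp. The summit was within 500 bp of the inner gene's 3′ end in 44 of 57 combinations and of the outer gene's in 7, at median distances of 144 bp and 2967 bp. Its position was at or past 90% of the inner gene in 33 and of the outer gene in 11. The outer gene was the more abundant of both in 37 of 55 pairs, and in the 39 combinations of these pairs the summit was still within 500 bp of the inner gene's 3′ end in 29 and of the outer gene's in 6. A window of 500 bp is a larger part of a short gene than of a long one, and this was not corrected for.

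**Figure D2:**
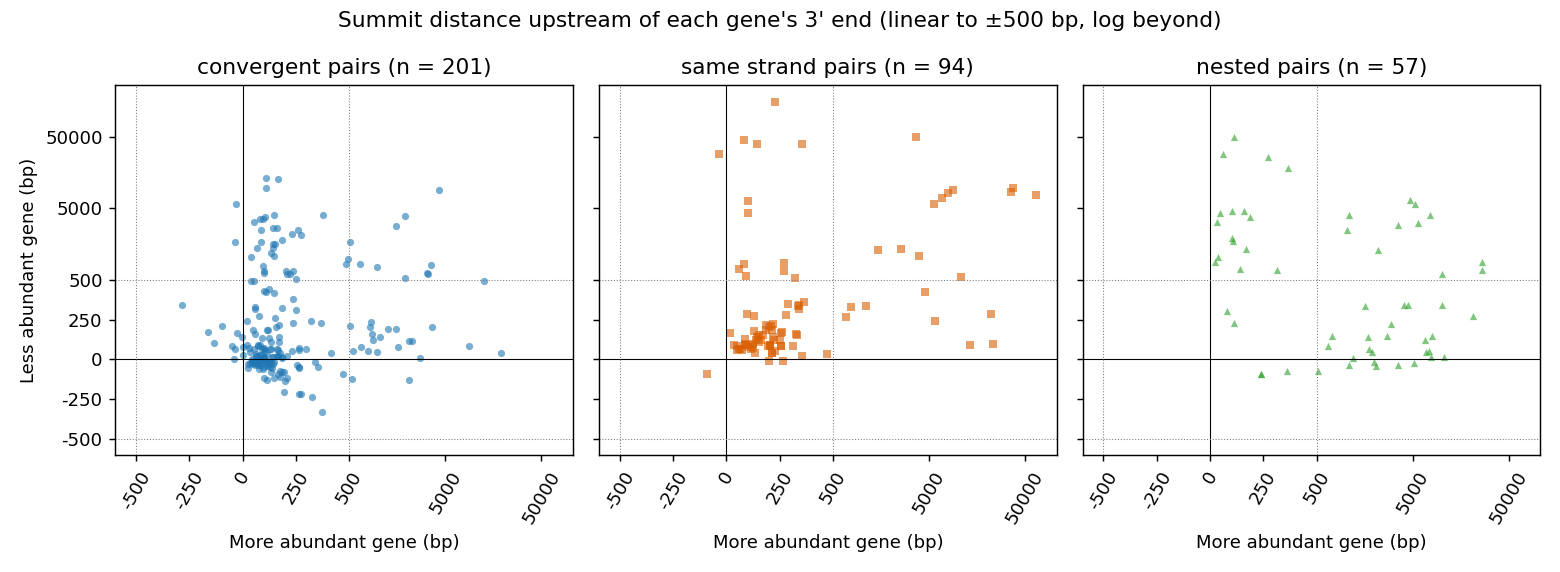
Distance of the replicate 1 summit upstream of the 3′ end of the more abundant gene (horizontal) and of the less abundant gene (vertical) in bp, 1 point per combination of peak and gene pair, for 201 convergent, 94 same-strand and 57 nested combinations; axes are linear to 500 bp and logarithmic beyond, and negative values lie past the gene's end. Convergent and same-strand points gather within 500 bp of both ends (133 and 61), and nested points spread along 1 axis or the other.

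Of the 5 divergent peaks, those of highest fold and the lowest are given as a description. The class is defined by overlapping 5′ parts, so its peaks must touch the stretch that both genes share. Their summits need not lie in the 5′ part of both genes. *Zm00001d027321* and *Zm00001d027320* overlap over 5914 bp on chromosome 1, and their peak (2884564 to 2884696) had folds of 8.23 and 5.27, with its summit at 12.4% of the former gene and 43.9% of the latter. *Zm00001d010261* and *Zm00001d010260* on chromosome 8 carried 2 peaks, at 106442017 to 106442090 with folds of 5.34 and 4.78, and at 106442209 to 106442347 with folds of 3.64 and 4.78. The lowest divergent peak, on chromosome 5 from 67326546 to 67326686 (folds of 2.18 and 2.21), lay at 89.1% of *Zm00001d014898*, with an mRNA FPKM of 25.7 and 29.3, and at 0.579% of *Zm00001d001572*, listed at 0 in all 4 libraries with FPKM.

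In most pairs, 1 gene was expressed and the other was not. The mRNA libraries gave a mean of 1 FPKM or more for 421 of the 650 member genes (64.8%), against 91.3% of genes with only peaks of 1 gene and 43.6% of all 45578 entries, and 52 member genes were listed at 0 in all 4 libraries. A shared peak brings in every gene it touches, also one it need not come from, so the shares of 64.8% and 91.3% are not like for like. In bulk tissue, fewer cells with a transcript and less of it per cell cannot be told apart. Both genes reached 1 FPKM in 122 of 337 pairs (36.2%), 1 gene did in 188 and neither in 27. Both did so in 89 of 192 convergent pairs, 20 of 86 same-strand pairs, 12 of 55 nested pairs and 1 of 4 divergent pairs. At least 1 gene was listed at 0 in both mRNA libraries in 77 pairs, 29 of them nested.

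The median mRNA FPKM of the more abundant gene was 6.27 and that of the less abundant gene 0.448 over the 337 pairs. Convergent pairs had medians of 7.42 and 0.841, same-strand pairs 5.73 and 0.185, and nested pairs 4.02 and 0. Among the 122 pairs with both genes at 1 FPKM or more, the more abundant gene had a median of 2.72 times the FPKM of the other, with 43 pairs within 2-fold and 11 over 10-fold. Overlapping genes share reads, and StringTie was run with default parameters and no strand option named, so the FPKM of both genes of a pair are uncertain in the shared stretch.

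**Figure D3:**
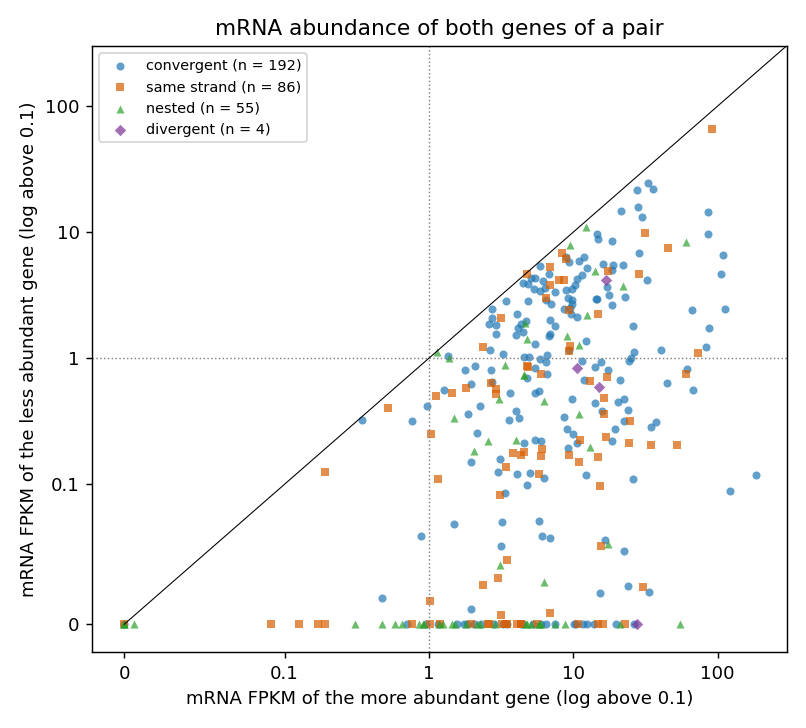
Mean mRNA FPKM (2 replicates) of the more abundant gene (horizontal) and of the less abundant gene (vertical) in the 337 pairs, 1 point per pair, on axes that are logarithmic above 0.1 and linear below. Dotted lines mark 1 FPKM; 122 pairs lie above it on both axes, and 77 have a gene listed at 0 in both mRNA libraries.

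Peak fold was lower where the most abundant gene below the peak had more mRNA. In the 23 shared peaks whose genes were all under 1 FPKM, the median fold was 8.98 in replicate 1 and 11.2 in replicate 2. It was 7.55 and 9.11 in 123 peaks at 1 to 5 FPKM, 6.04 and 5.89 in 142 peaks at 5 to 20 FPKM, and 3.13 and 3.10 in 57 peaks at 20 FPKM or more. Across the 345 peaks, Spearman's rho of fold and this FPKM was -0.567 in replicate 1 and -0.684 in replicate 2, a description over peaks that share libraries and in which the input RNA-seq is also the denominator of the fold. Peaks of 1 gene had a rho of -0.466 and -0.539 (n = 13892) and medians from 8.29 and 10.2 under 1 FPKM to 3.67 and 3.58 at 20 FPKM or more. In all 4 ranges the shared peaks thus had medians near those of peaks of 1 gene, with the widest relative gap at 20 FPKM or more. When both genes were at 1 FPKM or more the median fold was 5.55 and 5.77 (124 peaks, with a median FPKM of 9.40 for the most abundant gene), and with 1 such gene it was 6.32 and 7.01 (198 peaks, 5.44 FPKM).

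**Figure D4:**
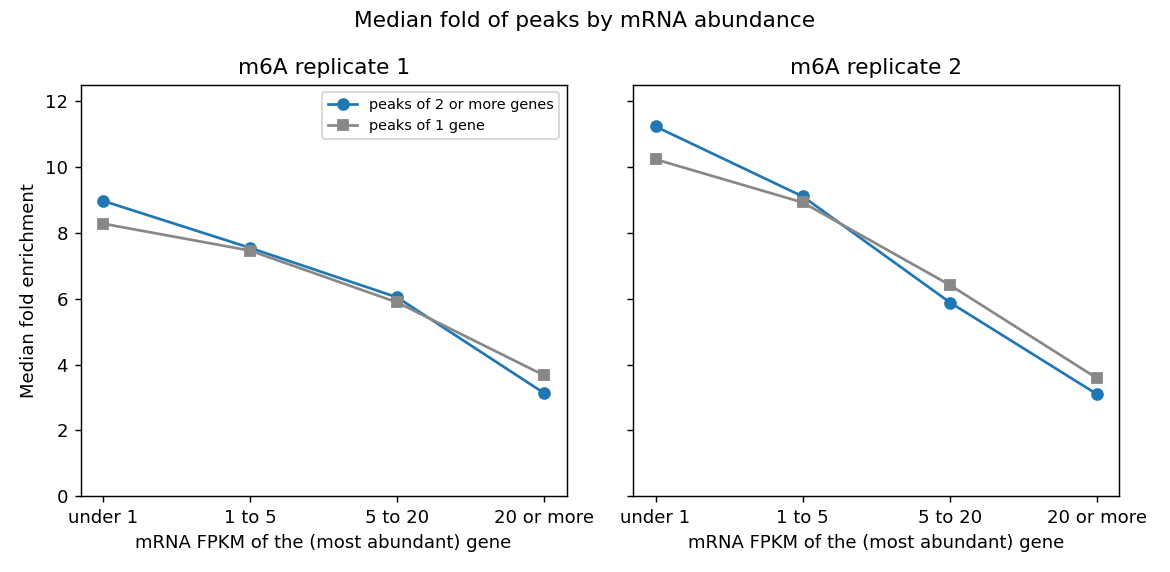
Median fold enrichment (vertical) by mRNA FPKM range of the gene, or of the most abundant gene, below the peak (horizontal), in m6A replicate 1 (left) and replicate 2 (right), for peaks of 2 or more genes (23, 123, 142 and 57 peaks) and of 1 gene (1085, 5557, 5713 and 1537 peaks). The medians of shared peaks go from 8.98 and 11.2 in the lowest range to 3.13 and 3.10 in the highest.

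The convergent peak of the highest mean fold lay on chromosome 10 from 16710618 to 16710824, with folds of 21.2 and 17.6. It sits 978 bp before the 3′ end of *Zm00001d023715* (mRNA FPKM 1.81 and 2.28) and 764 bp before that of *Zm00001d023717*, listed at 0 in all 4 libraries. The next, on chromosome 4 from 173199305 to 173199612, had folds of 20.2 and 18.4 and lies over 2 expressed genes. Its summit lay 235 bp from the 3′ end of *Zm00001d051876* (mRNA FPKM 4.62 and 4.31) and 226 bp from that of *Zm00001d051877* (1.46 and 1.79). The third, on chromosome 10 from 84553431 to 84553542 (folds of 15.0 and 20.4), lay 145 bp from the 3′ end of *Zm00001d024710* (1.36 and 0.555) and 4003 bp from that of *Zm00001d024711*, listed at 0 throughout. The lowest convergent peak, on chromosome 7 from 146813384 to 146813434 (folds of 1.85 and 1.67), lies over an abundant gene, *Zm00001d021245*, with an mRNA FPKM of 119 and 107, and *Zm00001d021246*, with 2.52 and 2.43.

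Among same-strand peaks, the highest lay on chromosome 7 from 26619359 to 26619587, with folds of 17.2 and 20.3, 141 bp from the 3′ end of *Zm00001d019299* (mRNA FPKM 5.52 and 6.48) and 124 bp from that of *Zm00001d001113*, which lies inside it (0.142 and 0.194). The peak on chromosome 4 from 35947600 to 35947756 had the least even folds of the 3 highest, 21.5 in replicate 1 and 12.02 in replicate 2, over *Zm00001d049579* (2.996 and 3.26) and *Zm00001d026790* (0.0528 and 0.132). Another of the 3 highest belonged to the pair with the most shared peaks. *Zm00001d053245* and *Zm00001d027004*, which share 15742 bp on chromosome 4, carried 5 peaks with folds from 6.15 to 17.4 in replicate 1 and from 12.1 to 19.7 in replicate 2. The highest of these, from 221815266 to 221815482, lay 17 bp and 168 bp from the 3′ ends, and the other 4 lay 5643 bp or more from both. The former gene had 3.31 and 3.52 FPKM in mRNA, and the latter was listed at 0 there. Of all pairs, 16 carried 2 or more shared peaks, and the convergent pair *Zm00001d014444* and *Zm00001d014445* came next with 3.

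The nested peaks of highest fold sat over pairs in which 1 gene was listed at or near 0. This was common in the class, as 29 of 55 nested pairs had a gene at 0 in both mRNA libraries. On chromosome 5 from 44475664 to 44475726, with folds of 13.4 and 19.2, the summit lay 33 bp from the 3′ end of the inner gene *Zm00001d014401* (mRNA FPKM 0 and 1.297, polysome 2.86 and 2.85), while the outer *Zm00001d014400* was listed at 0. On chromosome 1 from 4418476 to 4418706 (folds of 12.3 and 17.4), the outer *Zm00001d027401* had 2.94 and 3.32 FPKM and the inner *Zm00001d027402* 0 and 0.0848. On chromosome 4 from 99666751 to 99667048 (folds of 15.5 and 12.7), the summit lay 43 bp from the 3′ end of the inner *Zm00001d050552*, which was listed at 0 in all 4 libraries, and 1894 bp from that of the outer *Zm00001d050551* (5.73 and 4.52). The lowest nested peak, on chromosome 2 from 209341908 to 209342015 (folds of 2.17 and 2.70), lay 110 bp from the 3′ end of the abundant inner gene *Zm00001d006474* (54.6 and 55.8), within *Zm00001d001010*, which spans 194478 bp and was listed at 0.

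The 6 shared peaks whose less abundant gene had the most mRNA had folds below the medians of all shared peaks in both replicates. The first lay on chromosome 6 from 161896016 to 161896088 over 2 same-strand genes that share 4205 bp, *Zm00001d038652* (mRNA FPKM 65.8 and 66.2, polysome FPKM 300 and 261) and *Zm00001d038653* (90.9 and 91.9, polysome 501.3 and 436), with folds of 2.095 and 1.74. This was also the lowest same-strand peak. The other 5 lay over convergent pairs that share from 21 to 242 bp. *Zm00001d011092* (20.6 and 23.6) and *Zm00001d011093* (38.0 and 33.6), the latter a gene for which the study lists primers, share 21 bp on chromosome 8, and their peak from 138778725 to 138779043 had folds of 2.58 and 2.83. The pairs *Zm00001d051869* and *Zm00001d051870*, *Zm00001d022241* and *Zm00001d022242*, *Zm00001d032332* and *Zm00001d032333*, and *Zm00001d034935* and *Zm00001d034937* had folds between 2.25 and 4.69 in either replicate.

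Peaks over 3 entries numbered 6, and 2 of these include a short ENSRNA entry, an annotated non-coding RNA. On chromosome 5 from 2680426 to 2680505 (folds of 3.58 and 4.47) all 3 genes were expressed, with *Zm00001d012979* at 6.92 and 6.62 FPKM on one strand and *Zm00001d012980* at 27.8 and 29.0 and *Zm00001d012981* at 4.28 and 4.96 on the other. On chromosome 1 from 252351255 to 252351457 (3.27 and 3.23), *Zm00001d033155* had 16.5 and 11.9 FPKM, *Zm00001d033156* 1.46 and 8.30 and *Zm00001d033154* 0.361 and 1.34, so that the mRNA replicates of the latter genes lay far apart. On chromosome 3 from 130531793 to 130531876 (10.6 and 11.9), *Zm00001d000608*, *Zm00001d000609* and *Zm00001d000610* cover nearly the same bases of 1 strand, and their highest mRNA FPKM in any library was 0.379. *ENSRNA049444705* has the same coordinates as *Zm00001d052764* inside *Zm00001d052763*, and *ENSRNA049450817* the same as *Zm00001d046484* inside *Zm00001d046483*, so reads of each set cannot be assigned with certainty. The sixth, over *Zm00001d001571*, *Zm00001d014894* and *Zm00001d014895*, is described with the ratios.

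The rule asks for 1 bp in each gene, and the peaks nearest to this limit are given with no test. The peak on chromosome 1 from 267648353 to 267648485 (folds of 4.36 and 5.27) reached *Zm00001d033578* by 3 bp, and that on chromosome 1 from 259330530 to 259330608 (7.94 and 8.15) reached *Zm00001d033333* by 6 bp, as did 3 other peaks their second gene. On chromosome 9, the peak over *Zm00001d046483* (7.52 and 4.21) reached its other entries by 5 bp. Just outside, a peak of *Zm00001d048090* stopped 1 bp from *Zm00001d048089* (10.01 and 12.2), and those of *Zm00001d027257* and *Zm00001d036387* stopped 2 bp from *Zm00001d027256* (10.9 and 14.0) and *Zm00001d036388* (5.98 and 8.50). All 3 would have been convergent, and 96 peaks of 1 gene lay within 100 bp of a second gene, 11 of them within 10 bp.

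The polysome to mRNA ratio asks how much of a gene's RNA was found with ribosomes. Over the 421 member genes at 1 FPKM or more in mRNA, its median was 0.894 (quartiles 0.517 and 1.69), with 0.847 in replicate 1 and 0.959 in replicate 2. Genes with only peaks of 1 gene had a median of 0.885 (0.834 and 0.950, n = 9746), so the medians differed by less than the replicates did. The median was 0.844 in genes of convergent pairs (n = 272), 0.997 in those of same-strand pairs (n = 97) and 0.916 in those of nested pairs (n = 55).

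The difference of polysome from mRNA libraries was fitted by limma, on log2(FPKM + 0.1) with Benjamini–Hochberg adjustment, and a gene was called at an adjusted p of at most 0.01 and a change of at least 1.5-fold. A mean FPKM of at least 1 over the 4 libraries was required, which 406 of the 650 member genes passed. Of these, 102 (25.1%) were higher in polysome RNA, where 21.1% of all 19518 entries tested were, and 75 (18.5%) were lower, where 22.2% of all were. Both shares were thus near the background. By class, 63 genes were higher and 56 lower of 263 in convergent pairs, 29 and 13 of 91 in same-strand pairs, 11 and 7 of 56 in nested pairs, and 2 and 0 of 5 in divergent pairs. The split depended on scale. With each library centred on its median, 127 member genes were higher (31.3%) and 54 lower (13.3%), against 26.8% and 17.2% of all entries. With the ENSRNA entries left out and each library rescaled, which moved the median log2 difference of all entries from -0.14 to -0.76, 55 were higher (13.6%) and 164 lower (40.5%), against 9.55% and 44.5% of all entries. The members' split thus moved with that of all entries. The mRNA libraries were poly(A)-selected, and no such step is named for polysome RNA. Its part in these counts was not tested.

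Whether the genes of a pair differ in this ratio was tested within libraries, where the scale of a library cancels. Over 1319 pairs that overlap or lie within 500 bp, both genes passing the same filter, the limma test of the difference called 244 pairs (18.5%). Of 112 member pairs tested, 11 (9.82%) were called, with 8 of 81 convergent, 1 of 19 same-strand, 2 of 11 nested and none of 1 divergent pair, against 18.2%, 20.1%, 16.0% and 16.0% of all pairs of these classes. The difference between these shares was not tested. Without any 1 of the 4 libraries, the single library left of its kind is taken to vary like the other kind, and limma then called no pair of all 1319, so these fits say nothing of the stability of single pairs. With all libraries, 58 of the 112 member pairs had an unadjusted p under 0.05 (limma), against 771 of all 1319 pairs.

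Among the 122 pairs with both mRNA means at 1 FPKM or more, the order of the ratios was the same in both replicates in 102. No such count is given for other pairs, so whether 102 is usual cannot be said. The ratio of a replicate pairs mRNA and polysome libraries that share only a number. Over the 122 pairs, the median absolute log2 difference between the genes was 1.06, against 1.07 in 1300 pairs without a shared peak. The ratios of both genes had a Spearman's rho of 0.169 (n = 122), against 0.366 over the 1300. Within convergent pairs these values were 0.250 (n = 89) and 0.0216 (n = 470), and within same-strand pairs 0.200 (n = 20) and 0.513 (n = 563). Most of the 1300 pairs are neighbours that share no base. Only 426 overlapping pairs had both genes at 1 FPKM or more, 164 of them convergent and 154 same-strand. The compared sets thus differ in overlap as well as in the peak, and the part of each was not tested. All these rho values describe pairs that share 4 libraries, and genes that overlap, on the same strand or on opposite strands, also share reads. The more abundant gene had a median ratio of 1.05 and the less abundant one of 0.790, and the former had the higher value in 69 of 122 pairs.

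**Figure D5:**
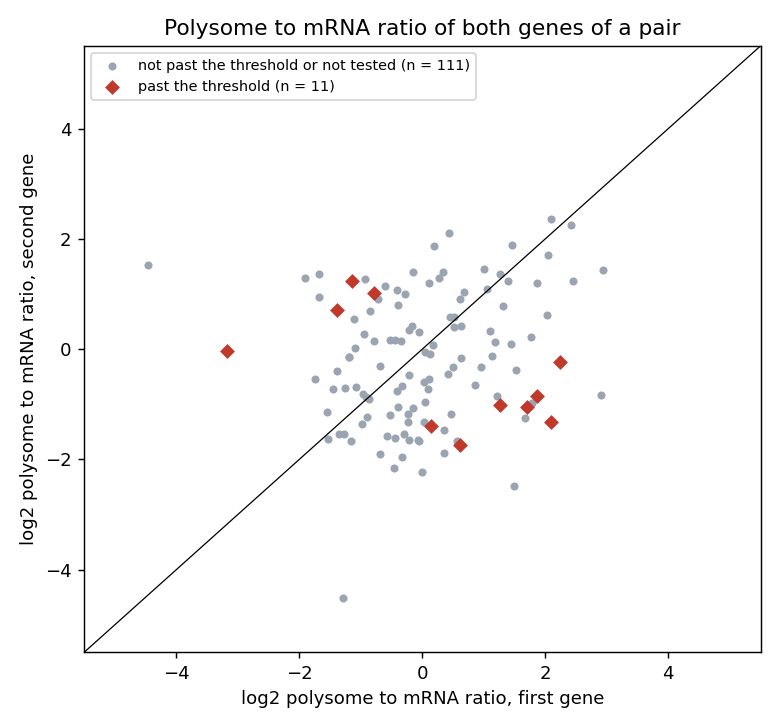
log2 polysome to mRNA ratio of the first gene (plus strand, or upstream gene of 1 strand, horizontal) and of the second gene (vertical), from means of 2 replicates with 0.1 added, in the 122 pairs with both genes at 1 FPKM or more, 1 point per pair. The line marks equal ratios, and diamonds are the 11 pairs past the limma threshold. The order of the ratios is the same in both replicates in 102 pairs, with no count given for other pairs.

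Among the called pairs, the largest difference was in the convergent pair *Zm00001d013425* and *Zm00001d013426*, which share 452 bp on chromosome 5. The mRNA FPKM of *Zm00001d013425* was 19.1 and 18.2 and its polysome FPKM 87.4 and 71.6, while *Zm00001d013426* had 2.68 and 2.62 in mRNA and 0.715 and 1.29 in polysome RNA. Polysome values stood above mRNA values in the former and below them in the latter in both replicates. The log2 difference of ratios was 3.45 ± 0.43 (SE; limma, Benjamini–Hochberg adjusted p = 0.00879), and their shared peak, from 11127243 to 11127590, had folds of 3.26 and 6.21. Larger differences with larger errors, up to 6.16 ± 2.70 in *Zm00001d022665* and *Zm00001d022666*, did not pass the threshold (limma, adjusted p = 0.133).

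In the nested pair on chromosome 10, the inner gene had the lower ratio. *Zm00001d024500* had 7.32 and 9.51 FPKM in mRNA and 1.01 and 0.674 in polysome RNA, within *Zm00001d024499*, with 55.9 and 65.4 in mRNA and 62.9 and 56.0 in polysome RNA. The log2 difference was -3.16 ± 0.22 (limma, adjusted p = 0.00393). Their peak, from 74401719 to 74401855 (folds of 5.20 and 3.47), lay 11 bp from the 3′ end of the inner gene and 7802 bp from that of the outer.

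*Zm00001d042960* and *Zm00001d042961* on chromosome 3 are convergent and do not overlap. The former had 1.69 and 2.06 FPKM in mRNA and 5.81 and 6.80 in polysome RNA, the latter 2.42 and 2.77 and then 1.06 and 1.34, with a log2 difference of 2.76 ± 0.18 (limma, adjusted p = 0.00364). Their peak, from 184964532 to 184964727, spans the gap, with folds of 4.46 and 9.84. Its summit lay inside the latter gene, 102 bp from its 3′ end.

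*Zm00001d014894* and *Zm00001d014895* share 27 bp on chromosome 5 inside the span of *Zm00001d001571*, which was listed at 0 in all 4 libraries. The former had 8.39 and 9.17 FPKM in mRNA and 32.5 and 31.8 in polysome RNA, the latter 14.5 and 14.9 and then 7.69 and 8.48, with a log2 difference of 2.72 ± 0.19 (limma, adjusted p = 0.00387). Their peak, from 67118219 to 67118518, had folds of 7.51 and 5.53, with the summit 62 bp before the 3′ end of the former and 36 bp past that of the latter.

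In the only same-strand pair called, *Zm00001d015228* and *Zm00001d015227*, the genes end at the same base on chromosome 5. The longer *Zm00001d015228* had 8.88 and 9.005 FPKM in mRNA and 13.8 and 13.7 in polysome RNA, and *Zm00001d015227*, which lies wholly inside it, 6.42 and 5.86 and then 1.39 and 2.16. The log2 difference was 2.38 ± 0.29 (limma, adjusted p = 0.00869), for genes whose reads are hard to separate over 3327 bp. Their peak, from 80071678 to 80071803 (folds of 7.63 and 7.03), lay 91 bp from the common 3′ end.

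The other 3 pairs named by size are convergent. *Zm00001d012735* minus *Zm00001d012736* on chromosome 8 gave 2.46 ± 0.21, *Zm00001d035898* minus *Zm00001d035899* on chromosome 6 gave 2.28 ± 0.18, and *Zm00001d001813* minus *Zm00001d001814* on chromosome 2 gave -2.39 ± 0.17 (limma, adjusted p = 0.00517, 0.00455 and 0.00414). The polysome to mRNA ratios of the replicates were 4.72 and 4.75 against 0.845 and 0.838 in the first of these, 2.28 and 2.56 against 0.444 and 0.533 in the next, and 0.470 and 0.415 against 2.38 and 2.36 in the last. These 3 pairs were chosen as called pairs with a large difference, so ratios that do not overlap between their genes follow from the choice. The replicate block and the lack of a filter cannot change a pair's difference, only its p, and none of these 8 pairs was called with either. Over all alternatives run for the 8 pairs, no difference turned its sign. The adjusted p (limma) ranged from 0.00105 to 0.0622.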

How the data were processed

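The authors trimmed reads with Trimmomatic 0.35, mapped them with HISAT2 2.1.0 to the B73 reference (AGPv4), called peaks per replicate with MACS2 at q under 0.01 against input, and estimated FPKM with StringTie. The deposited FPKM hold no counts, so depth is unknown and precision is the spread of 2 replicates. The deposited peak files give the fold (a ratio), the −log10 p and −log10 q and a score per peak; only fold, q and positions were used. Positions are 1-based. Entry spans and strands came from the FPKM tables of 45578 entries, none of whose 650 members matched the RefSeq gene table (assembly NAM-5.0), so the tissue markers could not be checked. Of the 345 peaks, 329 overlapped 1 replicate 2 peak; for the rest the replicate 2 peak of highest fold was taken.

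The tests on FPKM used limma 3.58.1 (lmFit, eBayes with trend; R 4.3.3), which was tested on simulated data. Python 3.11.15, pandas 2.3.3, numpy 2.4.6 and matplotlib 3.10.9 were used otherwise. The study's Xtail test needs counts and was not run. Members and lists were chosen with earlier results of these data known.

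Named in the text were, per class, the 3 peaks of highest and the 1 of lowest mean fold, the 6 peaks whose less abundant gene had the most mRNA, the 8 called pairs with the largest difference of ratios (both genes at 1 FPKM or more in mRNA), the 3 peaks with the fewest bp in their second gene and the 3 nearest outside, peaks of 3 entries, genes with primers, and, chosen after values were seen, the pair with 3 peaks. Alternatives covered overlaps, q, the pseudocount, filters, scaling, the replicate block and leaving out each library.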

Additional observations from a re-analysis of the deposited data

How the results depend on the processing

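Of 68 values recomputed under alternatives, 47 kept within a margin (1.5-fold for a count, 1 SD between replicates for a median or share, which was 0.615 percentage points for the share) and 21 moved beyond it. Requiring 50% overlap of both peaks left 310 shared peaks, of which 3 were divergent, and 75.5% had the summit inside 2 or more genes. With q of at most 1e-05 in both replicates there were 296, again 3 of them divergent, the share was 75% and the median fold 7.06. By single m6A replicates, the median fold ranged from 6.15 to 6.76 and the share from 76.2% to 77.1%. The margins came from these same replicate values, and the main share is that of replicate 1. Its outcomes by single replicates were thus fixed in advance, say nothing of its stability, and still count among the 47 and 21. Member genes lower in polysome RNA numbered 46 with no filter (7.69%, against 9.44% of all entries), 30 at a mean FPKM of at least 5 (13.6% against 21.7%), and 164 against 55 higher without ENSRNA entries and after rescaling (40.5% against 44.5% lower). Leaving out 1 library gave 33 to 55 lower (33 without mRNA replicate 2, 34 without mRNA replicate 1, 36 without polysome replicate 1; 9.44%, 11.4% and 10.5% of all entries) and 72 to 84 higher. Each of these fits had 1 library of a kind left, so their counts and shares are no check of the main counts. The median log2 difference of members was -0.0104 without mRNA replicate 1, 0.0171 without mRNA replicate 2 and 0.072 without polysome replicate 1. Over all entries tested it was -0.169, -0.107 and -0.0387. Without polysome replicate 2 it was -0.0986 in members and -0.219 over all entries. Unlike pairs among members numbered 25 of 112 tested with a pseudocount of 1, and 1 of 280 with no filter. At a mean FPKM of at least 5 they were 6 of 36, and with a replicate block 0 of 112. With the block, 53 member pairs had an unadjusted p under 0.05 (limma), against 694 of all 1319. Among all pairs tested, the calls were 244 of 1319, and 440 of 1319 with a pseudocount of 1. No filter gave 56 of 3567, a mean FPKM of at least 5 gave 100 of 478, and the block 0 of 1319. Same-numbered mRNA and polysome libraries hardly deviated together (correlation 0.0160 over 19518 genes), so these were taken to share only a number. The block gave 102 member genes higher (25.1%, against 19.9% of all entries) and 68 lower (16.7% against 20.5%), with 100 and 64 of the main calls kept. None of the 58 alternative values for the 8 named pairs turned its sign. With the block and with no filter the differences were the same, only the p changed, and none of the 8 was called. Elsewhere the differences went from 2.91 to 3.97 for Zm00001d013425 minus Zm00001d013426. For Zm00001d035898 minus Zm00001d035899 the range was narrower, from 2.06 to 2.34. The cause of these changes was not tested, other than that fewer samples or genes entered some fits. The search for motifs was not run, as no genome of the build was used here. Depth is unknown, so no value has a counting interval.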
